A study of Mus musculus with 4 samples.

Results

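The genes described here are 9 receptor genes of lymphocytes that bind lipids or were long without a known ligand: Gpr183, Gpr34, Gpr174, P2ry10, Gpr55, Gpr18, Gpr132, Ptger2 and Ptger4. They were found by gene symbol among the 55401 genes of the deposited count table, and all 9 were present. All 9 passed the low-count filter that left 11676 genes for testing, Gpr34 only through its counts in the Hic1 vector libraries. The 9 genes were chosen by their measured counts in these same 4 libraries, so their values between the vectors are a description. Nothing is read from the test results given for them below.

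Polyadenylated RNA was sequenced from CD8+ T cells of mouse spleen. They were P14 cells, whose transgenic receptor recognises lymphocytic choriomeningitis virus (LCMV). A vector for overexpression of Hic1, which encodes a repressor of transcription with zinc fingers, or an empty vector had been put into them, and they were isolated after infection with LCMV of the Armstrong strain. The Hic1 vector and the empty vector groups had 2 libraries each, labelled replicates 1 and 2. For the time after infection, the labels of the samples name day 32 but the text of the series day 7. Transduction, the transgenic receptor and the infection are shared by both groups, and the sources used here do not give the age, sex or number of mice. Any p-value thus covers only the spread between these libraries, which may be partly technical and includes a difference in sex-linked transcripts given below. Total counts were 7501285 and 8839317 in the Hic1 vector libraries and 4017346 and 3941364 in the empty vector libraries, so depth moved with the group. Hic1 itself had 314 and 161 counts with the Hic1 vector and 3 and 5 with the empty vector, vector-derived and endogenous transcripts together. Cd8a stood at 749 and 871 CPM with the Hic1 vector and at 662 and 705 CPM with the empty vector. Cd4 was below 1 CPM in all 4 libraries (at most 5 counts). CPM are counts per megaread, with library sizes scaled by the trimmed mean of M values (TMM). Xist, transcribed from the inactive X chromosome, stood at 502.8 and 455.2 CPM in the libraries numbered 1 (Hic1 and empty vector) and at 0.34 and 0 CPM in those numbered 2. Eif2s3y, on the Y chromosome, had 0 counts in both libraries numbered 1, and 951 and 396 in those numbered 2 (Hic1 and empty vector). The replicate number thus goes with a difference in sex-linked transcripts, which a fit on the group alone leaves in the spread within groups. Differences within each number are given below.

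These receptors pass signals to heterotrimeric G proteins. Receptors that couple to Gs raise cyclic AMP, those that couple to Gi lower it, and those that couple to the G12/13 class act on cell shape and migration. In lymphocytes GPR183 guides cells along oxysterol gradients in lymphoid organs, GPR34, GPR174 and P2RY10 bind lysophosphatidylserine, GPR55 binds lysophosphatidylinositol, and the receptors encoded by Ptger2 and Ptger4 bind prostaglandin E2 and raise cyclic AMP. GPR18 and GPR132 are lymphocyte receptors whose natural ligands are debated.

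Across all tested genes, 213 of 11676 (1.82%) passed an adjusted p of 0.05 in edgeR's quasi-likelihood test (Benjamini-Hochberg), 84 higher (0.719%) and 129 lower (1.1%) with the Hic1 vector. The count was 8 without empty vector replicate 1 and 320 without Hic1 vector replicate 1. The share of higher genes among those called was 39.4%, and 21.9% with library sizes alone in place of TMM scaling. None of the 9 members passed. Their count was also 0 by DESeq2 and by limma voom. DESeq2, run with no low-count filter, called 422 of the 31962 genes with a p-value (1.32%), a larger base than that of edgeR. Of the 11676 filtered genes, limma voom called 121 (1.04%). DESeq2 gave no adjusted p for Gpr34, so its count of 0 does not cover that gene. With no low-count filter edgeR called 3 members, Gpr34, Gpr55 and Gpr183, and 2.56% of the 31962 genes with a count. With the replicate number as a block it called the same 3 members, and 6.8% of the 11676 tested genes. At an unadjusted p under 0.05 there were 4 of 9 members, against 19.1% of all tested genes. Of these, Gpr34, Gpr55 and Gpr183 were higher with the Hic1 vector (9.4% of all tested genes were) and Gpr174 lower (9.7%). As these libraries chose the members, nothing is read from that count. For 5 members the Hic1 vector libraries both exceeded the empty vector libraries (as for 26.5% of all tested genes), and both were below them for 1 member, Gpr174 (24.9% of all tested genes). For Gpr18, P2ry10 and Ptger2 the groups overlapped. The median log2 fold change of the 9 members was 0.42 and that of all tested genes 0.01. In these bulk samples a difference in the share of cells that express a gene and a difference in RNA per cell cannot be told apart.

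**Figure D1:**
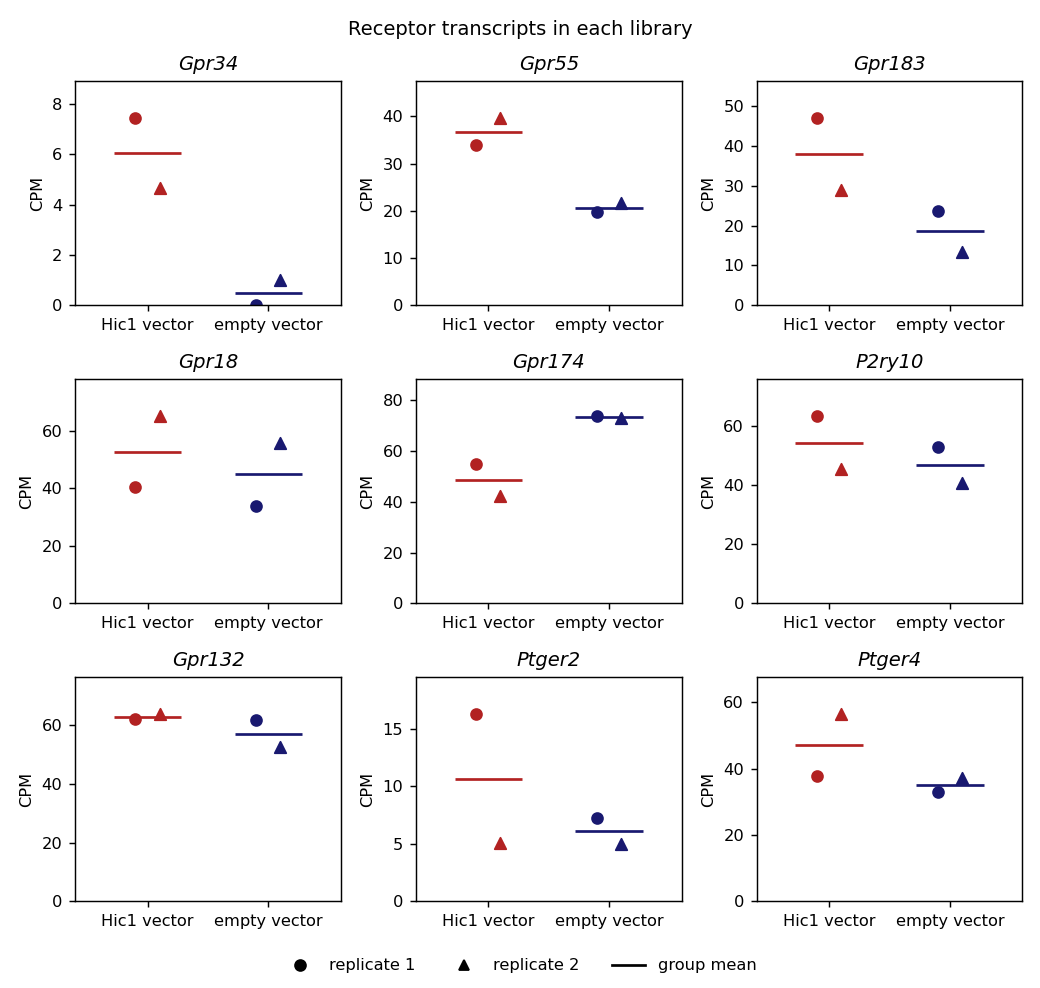
Level of each receptor transcript in CPM (vertical axis, from 0) in the Hic1 vector libraries (left, red) and the empty vector libraries (right, dark blue). Circles are replicate 1, triangles replicate 2 and lines group means; Gpr34, Gpr55, Gpr183, Gpr132 and Ptger4 have both Hic1 vector libraries above both empty vector libraries, and Gpr174 has them below.

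The 9 genes lie on 5 chromosomes, with 3 of them on X. Gpr18 (chr14:121911253-121915781) and Gpr183 (chr14:121952551-121965195) are neighbours on the minus strand of mm10, 36.8 kb apart, and both lie inside Ubac2 on the opposite strand without sharing an exonic base with it. Gpr34 (chrX:13632089-13640858, plus strand) lies in the same way inside Cask. P2ry10 (chrX:107088492-107104974) and Gpr174 (chrX:107255878-107296769) are 150.9 kb apart on the plus strand of X, with the paralog P2ry10b between them. Gpr55 is at chr1:85938318-85961007, Gpr132 at chr12:112850873-112868228, Ptger2 at chr14:44988195-45003820 and Ptger4 at chr15:5206661-5244187. Annotated genes on the opposite strand share 1.9% of the exonic bases of Gpr55 and at most 4.7% for a single gene over Ptger2. The processed pseudogene Gm15937 shares 15.3% of those of Ptger4. Whether reads were counted by strand is not given in the sources used here, so reads of these stretches could not be assigned to a strand.

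Because HIC1 is a DNA-binding repressor, the 250 bases upstream of RefSeq transcription starts (build GRCm38.p6) were searched on both strands for the letters GGGCANCC, the core of its response element, and for TGACGTCA, the cyclic AMP response element. RefSeq windows were matched for 8 of the 9 members, as 9 windows. The windows of Gpr174 and Gpr132 and the downstream window of P2ry10 lie inside the annotated span of the gene. For Gpr174 and Gpr132 the bases before the outermost annotated start were thus not searched. GGGCANCC occurs in 4.53% of the 32851 windows of that length and TGACGTCA in 1.55%. Among the members, GGGCANCC occurred once, in the upstream P2ry10 window, and TGACGTCA in no member. The windows of Gpr183 and Gpr55, of Gpr174 and of P2ry10 are printed 5′ to 3′ on the strand of the gene. The first 2 had the higher CPM with the Hic1 vector, Gpr174 had the lower CPM, and P2ry10 holds the match. That match is in capitals as its reverse complement and begins 156 bases before the start. A match in letters is a description and not a binding site.
Gpr183, chr14:121965194-121965443, minus strand: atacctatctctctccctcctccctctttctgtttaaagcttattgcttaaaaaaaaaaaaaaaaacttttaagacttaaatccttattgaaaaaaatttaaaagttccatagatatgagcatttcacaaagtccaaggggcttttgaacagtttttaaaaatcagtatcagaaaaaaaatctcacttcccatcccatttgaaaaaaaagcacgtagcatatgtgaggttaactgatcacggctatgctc
Gpr55, chr1:85961056-85961305, minus strand: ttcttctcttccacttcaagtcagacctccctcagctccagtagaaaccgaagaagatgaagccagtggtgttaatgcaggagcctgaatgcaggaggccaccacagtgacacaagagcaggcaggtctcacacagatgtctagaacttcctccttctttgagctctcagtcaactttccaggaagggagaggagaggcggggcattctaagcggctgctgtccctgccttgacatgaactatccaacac
Gpr174, chrX:107284096-107284345, plus strand: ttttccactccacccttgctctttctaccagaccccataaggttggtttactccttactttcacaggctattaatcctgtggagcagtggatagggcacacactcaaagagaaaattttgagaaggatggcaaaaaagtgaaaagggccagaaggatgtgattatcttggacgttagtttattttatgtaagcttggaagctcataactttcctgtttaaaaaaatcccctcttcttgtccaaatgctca
P2ry10, chrX:107088242-107088491, plus strand: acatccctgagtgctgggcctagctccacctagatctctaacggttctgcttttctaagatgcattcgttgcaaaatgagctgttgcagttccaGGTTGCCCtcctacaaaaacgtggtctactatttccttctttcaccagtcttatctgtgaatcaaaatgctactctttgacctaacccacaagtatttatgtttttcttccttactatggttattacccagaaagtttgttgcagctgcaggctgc
The Gpr183 window had a GC content of 32% with 2 CpG dinucleotides and the Gpr55 window 52% with 3. Among the members the extreme was Ptger4, at 66.8% with 19 CpG dinucleotides, against a median GC content of 52.4% over all windows.

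Gpr183, the receptor for oxysterols such as dihydroxycholesterol, stood at 46.8 CPM (334 counts) and 28.8 CPM (254 counts) in Hic1 vector libraries 1 and 2, against 23.7 CPM (98 counts) and 13.4 CPM (54 counts) in empty vector libraries 1 and 2. The groups did not overlap, but Hic1 vector library 2 was close to empty vector library 1. The log2 fold change was 1.01 ± 0.33 (SE, n = 2 per group), with log2 differences of 0.97 within replicate number 1 and 1.07 within number 2, on the log2(CPM + 0.5) scale. With 1 library left out the log2 fold change was 0.63 to 1.47. In both groups the library numbered 1 was the higher, by 0.69 with the Hic1 vector and by 0.80 with the empty vector on that scale, so the replicate numbers of a group differed by nearly as much as the groups did. Gpr183 is abundant in B cells, and transcripts of the 10 B cell markers summed to 43.1 and 18.6 CPM in the Hic1 vector libraries and to 19.1 and 10.2 CPM in the empty vector libraries. The most abundant of them was Cd79b, a chain of the B cell receptor, at 37.8 and 13.3 CPM with the Hic1 vector and 16.2 and 3.23 CPM with the empty vector. Ms4a1, which encodes CD20, had 0 and 1 counts with the Hic1 vector and 0 and 2 with the empty vector. In single libraries 0 to 6 of the 10 markers were at 0, and their part in the Gpr183 values was not tested. Ubac2, the ubiquitin-associated gene around Gpr183 and Gpr18, stood at 181.9 and 182.1 CPM with the Hic1 vector and at 136.4 and 136.7 CPM with the empty vector.

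Transcripts of the enzymes that make and break down the oxysterol ligands of GPR183 were scarce in these cells. Ch25h, cholesterol 25-hydroxylase, had 0 and 1 counts with the Hic1 vector and 0 and 0 with the empty vector. Cyp7b1, which completes the ligand, had 0 and 0 counts with the Hic1 vector and 0 and 1 with the empty vector, and Hsd3b7, which degrades it, had 0 in all 4 libraries. Of 7 genes of this list, 1 was tested, the sulfotransferase gene Sult2b1, at 5.32 and 3.63 CPM with the Hic1 vector and 6.28 and 3.23 CPM with the empty vector, and it did not pass.

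Gpr34, a lysophosphatidylserine receptor known from microglia and mast cells, was at 4 counts or fewer in each empty vector library. It had 53 and 41 counts (7.42 and 4.65 CPM) in the Hic1 vector libraries and 0 and 4 counts (0 and 0.994 CPM) in the empty vector libraries. A count of 0 in empty vector library 1 allows a level of up to 0.724 CPM (3 counts). Pooled over the libraries of a group, its rate was 12.0 times as high with the Hic1 vector, with a 95% exact interval of 4.54 to 45.0. The interval describes counting error alone and tests nothing, since the gene was chosen on these counts. The fitted log2 fold change, 2.95 ± 1.01 (SE, n = 2 per group), is pulled towards 0 by the prior count and is no bound. With 1 library left out it was 2.29 to 4.4. On the log2(CPM + 0.5) scale the vectors differed by 3.99 in replicate number 1 and by 1.78 in number 2. Transcripts of the 10 monocyte and macrophage markers summed to 43.7 and 52.0 CPM with the Hic1 vector and to 49.7 and 73.8 CPM with the empty vector, with 1 to 5 of the 10 at 0 in single libraries, and their part in the Gpr34 values was not tested. Gpr82, the receptor gene beside Gpr34, had 0 counts in all 4 libraries, and Cask, the gene around it, was at 1.54 and 0.567 CPM with the Hic1 vector and 1.45 and 0.497 CPM with the empty vector.

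Gpr174, a lysophosphatidylserine receptor of lymphocytes, had the 1 negative log2 fold change among the members. It stood at 54.9 and 42.4 CPM (392 and 374 counts) in the Hic1 vector libraries, against 73.6 and 73.1 CPM (305 and 294 counts) in the empty vector libraries. The empty vector libraries were close together, and both Hic1 vector libraries were below them. The log2 fold change was -0.59 ± 0.19 (SE, n = 2 per group), with -0.42 within replicate number 1 and -0.78 within number 2.

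P2ry10, the third lysophosphatidylserine receptor gene of the set, did not separate the groups. It stood at 63.3 and 45.3 CPM (452 and 400 counts) with the Hic1 vector and at 52.9 and 40.8 CPM (219 and 164 counts) with the empty vector, a log2 fold change of 0.21 ± 0.23 (SE, n = 2 per group). Hic1 vector library 2 lay below empty vector library 1. Its paralog P2ry10b had the opposite sign, at 16.5 and 18.8 CPM with the Hic1 vector and 21.01 and 23.6 CPM with the empty vector (log2 fold change -0.33 ± 0.28), and did not pass. Transcripts of the pair share 3.79% of the stretches of 50 bases of P2ry10, so a small part of the reads could have gone to either gene.

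Set side by side, P2ry10 had more counts than Gpr174 in both Hic1 vector libraries, with ratios of 1.15 and 1.07, and fewer in both empty vector libraries, with ratios of 0.718 and 0.558. On the scale of CPM per kilobase of longest transcript, Gpr174 made up 29.7% and 31.6% of the summed level of the 3 lysophosphatidylserine receptors in the Hic1 vector libraries, and 44.0% and 49.5% in the empty vector libraries. Gpr34 made up 9.82% and 8.49% with the Hic1 vector, and 0% and 1.65% with the empty vector. The summed level itself overlapped between the groups, at 36.2 and 26.2 with the Hic1 vector and 32.7 and 28.9 with the empty vector. The 3 genes have transcript GC contents of 35.5% to 37.1%, against a median of 49.0% over the tested genes. Genes called higher with the Hic1 vector had a median GC content of 55.8% and genes called lower 46.1%, so GC content moved with the group. With a GC trend removed from each library, the log2 fold change was 0.40 for P2ry10, -0.41 for Gpr174 and 3.08 for Gpr34.

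Gpr55, a receptor for lysophosphatidylinositol with a second history as a cannabinoid receptor, had tight replicates. It stood at 34.0 and 39.6 CPM (243 and 349 counts) in the Hic1 vector libraries, against 19.8 and 21.6 CPM (82 and 87 counts) in the empty vector libraries. Both Hic1 vector libraries were above both empty vector libraries, as for 26.5% of all tested genes. Gpr55 was chosen on these counts, so the gap between the groups tests nothing. The log2 fold change was 0.82 ± 0.24 (SE, n = 2 per group), a fold of 1.77, with 0.77 within replicate number 1 and 0.86 within number 2. With 1 library left out the log2 fold change stayed between 0.71 and 0.93.

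None of the 14 tested genes that make or break down lysophosphatidylserine, lysophosphatidylinositol and related lipids passed the adjusted threshold by edgeR, and 5 of the 14 had an unadjusted p under 0.05, as did 19.1% of all tested genes. DESeq2 called 1 of them, Faah (adjusted p = 0.0441). The list's median log2 fold change was 0.04, against 0.01 for all tested genes. Abhd12, a lysophosphatidylserine lipase, was at 17.2 and 14.3 CPM with the Hic1 vector and 40.6 and 22.9 CPM with the empty vector. Mboat7, which puts arachidonate onto lysophosphatidylinositol, was at 19.9 and 10.8 CPM with the Hic1 vector and 35.98 and 23.9 CPM with the empty vector. Faah, a hydrolase of fatty acid amides, was at 170.4 and 98.4 CPM with the Hic1 vector and 85.5 and 67.3 CPM with the empty vector. These 3 were named for the lowest p of the list. For all 3 the groups did not overlap, as for 51.4% of all tested genes in either direction. Their adjusted p values by edgeR were 0.111, 0.161 and 0.14.

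Gpr18, a receptor of lymphocytes that is also found in intraepithelial T cells, varied more with the replicate number than with the vector. It stood at 40.3 and 65.1 CPM (288 and 574 counts) with the Hic1 vector and at 33.8 and 55.9 CPM (140 and 225 counts) with the empty vector, so the groups overlapped. The log2 fold change was 0.23 ± 0.29 (SE, n = 2 per group), with 0.25 within replicate number 1 and 0.22 within number 2. The library numbered 1 was lower by 0.68 with the Hic1 vector and by 0.72 with the empty vector on the log2(CPM + 0.5) scale.

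Gpr132, a receptor of the proton-sensing family, hardly differed between the groups. It stood at 61.9 and 63.6 CPM (442 and 561 counts) with the Hic1 vector and at 61.6 and 52.4 CPM (255 and 211 counts) with the empty vector. Its log2 fold change was 0.14 ± 0.19 (SE, n = 2 per group). The groups touched, with 61.9 CPM as the lower Hic1 vector value and 61.6 CPM as the higher empty vector value.

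The 2 prostaglandin E2 receptors differed from each other mainly in level. Ptger4 stood at 37.7 and 56.3 CPM (269 and 497 counts) with the Hic1 vector and at 32.8 and 37.3 CPM (136 and 150 counts) with the empty vector. The groups were apart by less than 1 CPM, and the log2 fold change was 0.42 ± 0.24 (SE, n = 2 per group), with 0.20 within replicate number 1 and 0.59 within number 2. Ptger2 stood at 16.2 and 5.10 CPM (116 and 45 counts) with the Hic1 vector and at 7.24 and 4.97 CPM (30 and 20 counts) with the empty vector. A single library, Hic1 vector 1, was high, the groups overlapped, and the log2 fold change of 0.76 ± 0.55 (SE, n = 2 per group) was -0.24 without that library. Within replicate number 1 it was 1.11 and within number 2 it was 0.03. Per kilobase, Ptger4 exceeded Ptger2 in every library, 2.27-fold and 10.8-fold with the Hic1 vector and 4.43-fold and 7.33-fold with the empty vector. Of the remaining prostaglandin E2 receptor genes, Ptger1 had 32 and 17 counts with the Hic1 vector and 12 and 24 with the empty vector, and Ptger3 had 0 and 0 counts with the Hic1 vector and 0 and 1 with the empty vector. Ptger1 did not pass (log2 fold change -0.44), and Ptger3 missed the low-count filter.

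None of the 8 tested genes of prostaglandin synthesis, transport and breakdown passed by edgeR, with a median log2 fold change of -0.20, and 1 had an unadjusted p under 0.05. Ptges3, a co-chaperone also named as a prostaglandin E synthase, was at 37.1 and 25.2 CPM with the Hic1 vector and 62.1 and 57.4 CPM with the empty vector (log2 fold change -0.94 ± 0.23, adjusted p = 0.0618 by edgeR's quasi-likelihood test). It was called by DESeq2 (adjusted p = 0.0345), and by edgeR with library sizes alone (0.0337), with at least 10 counts in every library (0.049) and with no low-count filter (0.00612). It was not called by limma voom (adjusted p = 0.0681), nor by edgeR with DESeq2 size factors (0.066) or counts thinned to the smallest library (0.0663). After GC correction its log2 fold change was -0.79 (adjusted p = 0.125 by edgeR's quasi-likelihood test). Cbr1, a carbonyl reductase, had a log2 fold change of 0.57, and Abcc4, a transporter that exports prostaglandins, one of -0.36.

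**Figure D2:**
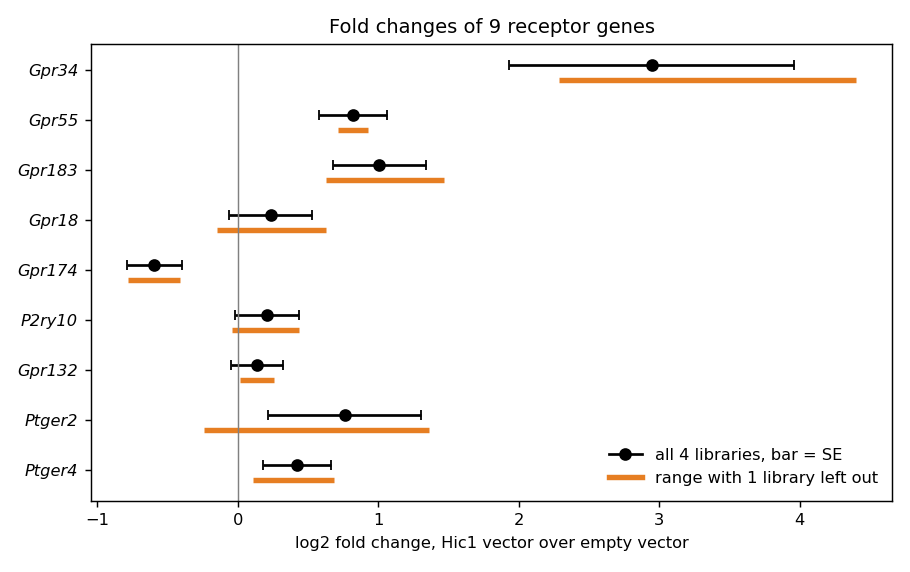
Log2 fold change of each receptor gene, Hic1 vector over empty vector (horizontal axis), with points and black bars for the estimate and its SE over all 4 libraries and orange lines for the range with 1 library left out. The orange line lies above 0 for Gpr34, Gpr55, Gpr183, Gpr132 and Ptger4, below 0 for Gpr174 (-0.78 to -0.41), and crosses 0 for Gpr18, P2ry10 and Ptger2. Where the groups do not overlap, the sign with 1 library left out is largely fixed, so the lines are a description.

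Levels of different genes were compared per kilobase of the longest annotated transcript. Gpr18 and Gpr132 led in both groups. Gpr18 stood at 26.9 and 43.4 CPM per kilobase with the Hic1 vector and at 22.6 and 37.3 with the empty vector. Gpr132 stood at 25.0 and 25.7 with the Hic1 vector and at 24.8 and 21.2 with the empty vector. With the Hic1 vector these 2 were followed by P2ry10, Gpr183, Ptger4, Gpr55 and Gpr174, where each overlapped the next in that order, while P2ry10 in both libraries was above Ptger4, Gpr55 and Gpr174, and then by Ptger2 and Gpr34, which overlapped each other. With the empty vector the order was Gpr18, Gpr132, P2ry10, Gpr174, Ptger4, Gpr183, Gpr55, Ptger2 and Gpr34, where Gpr18 overlapped Gpr132, P2ry10 overlapped Gpr174, and Gpr183 overlapped Gpr55. Gpr174 ranked 7 with the Hic1 vector and 4 with the empty vector, Gpr183 ranked 4 with the Hic1 vector and 6 with the empty vector, and Gpr55 ranked 6 with the Hic1 vector and 7 with the empty vector. By mean level per kilobase in the empty vector libraries, Gpr18 was above 80.5% of the tested genes, Gpr183 above 45.4%, Ptger2 above 15.6% and Gpr34 above 0.754%.

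**Figure D3:**
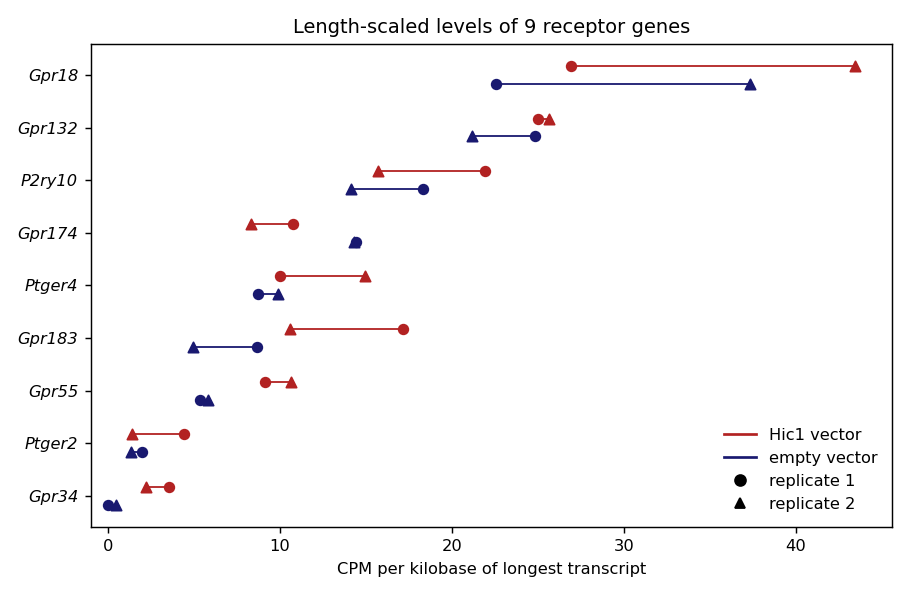
Level of each receptor gene in CPM per kilobase of longest transcript (horizontal axis), with Hic1 vector libraries in red above empty vector libraries in dark blue; circles are replicate 1, triangles replicate 2, and a line joins the libraries of a group. Genes run down the page from the highest to the lowest mean with the empty vector, from Gpr18 to Gpr34.

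The members also differed between the replicate numbers. The library numbered 1 exceeded that numbered 2 in both groups for 4 members, Gpr183, P2ry10, Ptger2 and Gpr174, and was below it in both groups for 3, Gpr18, Ptger4 and Gpr55. For Ptger2 the difference was 1.58 with the Hic1 vector and 0.50 with the empty vector on the log2(CPM + 0.5) scale. For Ptger4 it was -0.57 with the Hic1 vector and -0.18 with the empty vector, and for P2ry10 it was 0.48 with the Hic1 vector and 0.37 with the empty vector. Gpr174 hardly differed between the empty vector libraries (0.01) and differed by 0.37 between the Hic1 vector libraries. The X-linked genes P2ry10, Gpr174 and Gpr34 did not share a pattern, Gpr34 having opposite signs in the groups at 4 counts or fewer in each empty vector library. These are single pairs of libraries, with no test. The share of all tested genes with the same direction in both groups is not given here, so nothing is read from the counts of members. Across all tested genes, deviations of the libraries numbered 1 from their group means correlated at 0.239.

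**Figure D4:**
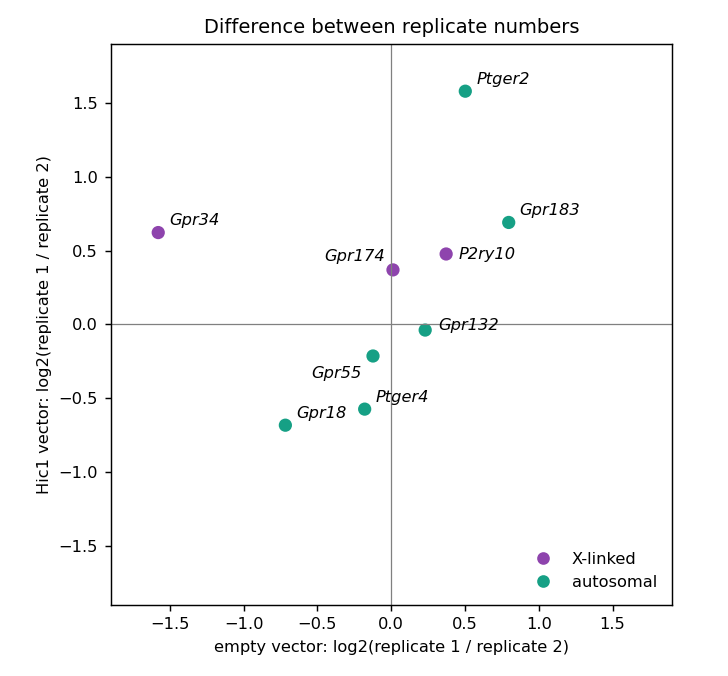
Difference between replicate 1 and replicate 2 on the log2(CPM + 0.5) scale within the empty vector group (horizontal axis) and within the Hic1 vector group (vertical axis), 1 point per gene, X-linked genes in purple and autosomal genes in green. Gpr183 and Gpr18 lie near the diagonal on opposite sides of 0.

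Among 9401 tested genes with a mean of at least 5 CPM, the patterns nearest to each member over the 4 libraries were listed as a description, by Euclidean distance between centred log2(CPM + 0.5) profiles. Gpr55 was nearest to Prkaca, a catalytic subunit of protein kinase A (distance 0.05), and to Ppcs. Gpr183 was nearest to Cd7 and Ikzf2 (both 0.11), a T cell surface protein and a transcription factor of the Ikaros family. Gpr174 was nearest to Nfatc3 (0.04), a calcium-regulated transcription factor, and to Zfp622 (0.05). P2ry10 was nearest to Haus1 and Chaf1b, Gpr18 to Csnk1g3 and the predicted gene Gm19040, and Gpr132 to Eif3i and Slc25a4. Ptger4 was nearest to Abraxas1 and Hsd17b10. Ptger2 had no close neighbour, with Nt5e, the ectonucleotidase CD73, and Cd40lg, the CD40 ligand, at distances of 0.20 and 0.21. Gpr34 missed the level minimum. With 4 libraries many genes share a profile of this kind.

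Around these receptors, 9 lists of related receptors, ligand enzymes and signalling genes held 125 tested genes, of which 1 passed the adjusted threshold (1.82% of all tested genes did). That gene was Adgrg5, an adhesion G-protein coupled receptor of lymphocytes. It stood at 65.1 and 79.0 CPM with the Hic1 vector and at 18.6 and 33.5 CPM with the empty vector, and rose with a log2 fold change of 1.46 ± 0.27 (SE, n = 2 per group; adjusted p = 0.0285 by edgeR's quasi-likelihood test). Both Hic1 vector libraries were above the higher empty vector library. It missed the threshold after GC correction (log2 fold change 1.29, adjusted p = 0.0527 by the same test) and without empty vector replicate 1 (1.10, adjusted p = 0.163), and over all alternatives its adjusted p ranged from 3.14e-09 to 0.163. Of the 30 tested receptors of that list, 1 rose, none fell and 29 did not pass. The median of those 30 was 0.31. S1pr4, a sphingosine 1-phosphate receptor, stood at 624.9 and 739.8 CPM with the Hic1 vector and 407.1 and 505.7 CPM with the empty vector. Adgre5, which encodes CD97, stood at 603.0 and 594.3 CPM with the Hic1 vector and 418.0 and 419.7 CPM with the empty vector. Neither passed by edgeR (adjusted p = 0.0659 and 0.057), and DESeq2 called both. After GC correction the log2 fold change was 0.36 for S1pr4 and 0.38 for Adgre5. The median of the 30 receptors was then 0.18, against 0.03 for all tested genes.

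None of the genes of the signalling lists passed by edgeR, and DESeq2 called Grk2 and Grk6 among those described here (adjusted p = 0.0267 and 0.0426). The 8 tested G protein alpha subunits had a median of 0.11. Gnai2, the main Gi subunit of lymphocytes, was at 153.2 and 175.5 CPM with the Hic1 vector and 249.2 and 177.4 CPM with the empty vector, while Gna11 and Gna12 had log2 fold changes of 0.56 and 1.26. The 10 beta and gamma subunits had a median of 0.03, with Gnb1, Gng5 and Gng10 at -0.25, -0.34 and -0.44. Among 14 receptor kinases, arrestins and RGS proteins, which end receptor signalling, 12 had a log2 fold change above 0 and the median was 0.53, against 0.01 for all tested genes. Grk6 and Grk2, kinases that phosphorylate active receptors, had log2 fold changes of 0.78 ± 0.19 and 0.55 ± 0.14, and Rgs3, an accelerator of G protein shut-off, one of 0.56 ± 0.16. Their adjusted p values by edgeR were 0.0613, 0.0684 and 0.0879. With the GC trend removed, the log2 fold changes were 0.56 for Grk6, 0.34 for Grk2 and 0.40 for Rgs3, and the median of the list was 0.42, against 0.03 for all tested genes. The median of the alpha subunits was then -0.04. Of 25 genes of the cyclic AMP pathway, 12 had a log2 fold change above 0 and the median was -0.01. Prkaca stood at 15.8 and 19.0 CPM with the Hic1 vector and 8.93 and 9.94 CPM with the empty vector, Pde4b, a phosphodiesterase, had a log2 fold change of 0.61 and Crtc2, a coactivator of CREB, one of -0.65. Of 10 CD8 T cell markers, 9 had a log2 fold change above 0 with a median of 0.25, and none passed. The 5 NK cell markers include some that activated CD8 T cells express too. They summed to 85.6 and 90.9 CPM with the Hic1 vector and 45.2 and 59.6 CPM with the empty vector. Of the 4 that were tested 1 passed (1.82% of all tested genes did). That was Klra8, a lectin-like receptor, with 78 and 48 counts with the Hic1 vector and 2 and 1 with the empty vector (adjusted p = 0.0204 by edgeR's quasi-likelihood test). Klrb1c, another lectin-like receptor, stood at 58.3 and 70.4 CPM with the Hic1 vector and at 29.2 and 43.5 CPM with the empty vector. Ncr1 had at most 2 counts in any library. For Tyrobp and Fcer1g, the remaining NK cell markers, the groups overlapped, with log2 fold changes of 0.09 and -0.15. For Klra8 and Klrb1c both Hic1 vector libraries were above both empty vector libraries, as for 26.5% of all tested genes. Of 8 dendritic cell markers 4 were tested and 1 passed, against 1.82% of all tested genes. That was Bst2, which encodes tetherin and is induced by interferon. It stood at 69.0 and 69.4 CPM with the Hic1 vector and 33.8 and 34.0 CPM with the empty vector. Its adjusted p was 0.0271 by the same test. The part of these markers in the receptor values was not tested.

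**Figure D5:**
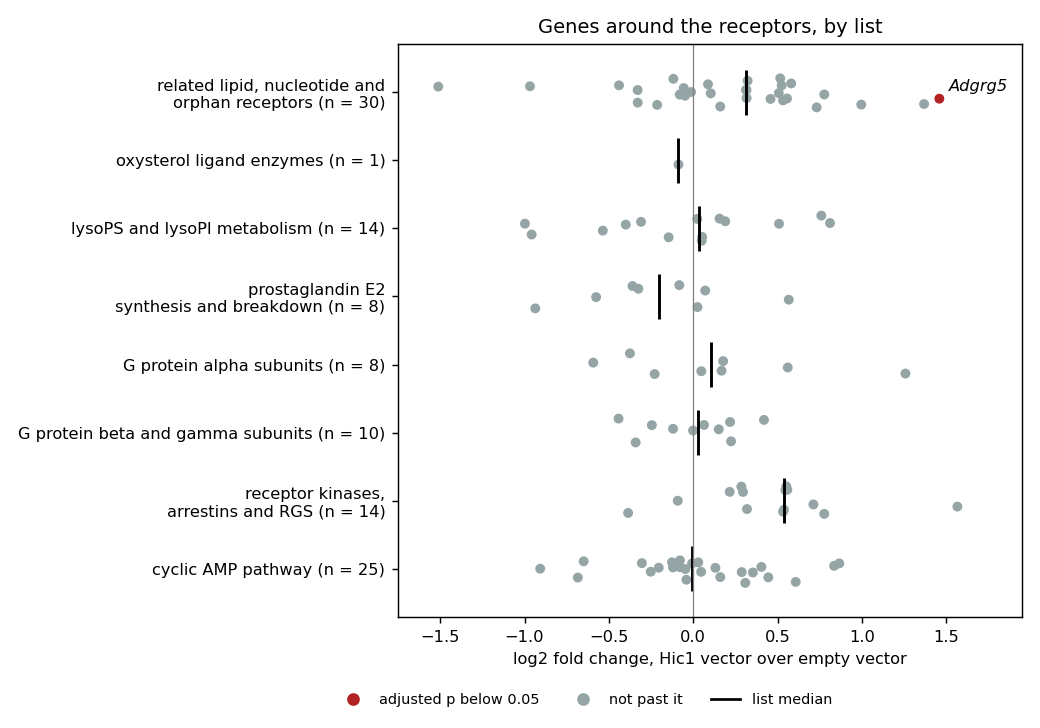
Log2 fold change, Hic1 vector over empty vector (horizontal axis), of the tested genes of 8 lists, 1 point per gene, with black lines for list medians (vertical scatter within a list is arbitrary). Adgrg5, in red, is the 1 gene past the adjusted threshold, and the receptor kinase, arrestin and RGS list has its median at 0.53.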

How the data were processed

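The values used are read counts per Ensembl gene, deposited as whole numbers with no scaling by the authors that the values show. The submitters' processing notes name STAR 2.5.2b, Trimmomatic 0.38, DESeq2 1.3.2, featureCounts 1.5.3 and the build mm10, without their role or order. Per the labels' protocols, about 1000 of 5000 sorted cells were sorted again, and 5 µl of lysate went into Smart-seq2 with 12 PCR cycles. Without molecular identifiers, reads are not independent molecules, so counting intervals and floors cover counting error only. The deposited normalized table was not used.

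Of 55401 genes, filterByExpr (minimum count 10, minimum total 15) kept 11676, and these were fitted on the group after TMM scaling (edgeR 4.0.16, quasi-likelihood, robust, prior count 2). Standard errors are Wald errors with the moderated quasi-dispersion. The steps were tested on simulated counts. Alternatives numbered 16, including DESeq2 1.42.0 and limma 3.58.1, 1 of them chosen after the data were seen. Gene models, transcript length and GC content came from GENCODE M21, where 99.5% of identifiers were found, and promoters from RefSeq.

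The members and lists were chosen with earlier results of these data known. Named genes are the members, Hic1, called list genes or the 3 of lowest p in each list, the 2 nearest patterns per member, and neighbours and paralogs. Ptger1, Ptger3, Ch25h, Cyp7b1, Hsd3b7, Xist, Eif2s3y and the markers named were chosen after their values were seen. A signalling list and some of the marker genes are not reported here.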

Additional observations from a re-analysis of the deposited data

How the results depend on the processing

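Of 9 members, 3 (Gpr34, Gpr55 and Gpr183) were called with no low-count filter, where 819 of 31962 genes were called (2.56%), and 3, the same genes, with the replicate number as a block, where 794 were (6.8%). With GC correction and the replicate block 2 members (Gpr34 and Gpr183) and 572 genes were called, and with GC correction alone 0 members and 102 genes. The replicate number is not stated to pair libraries. Deviations of the libraries numbered 1 from their group means correlated at 0.239 across genes, and at 0.179 without X and Y genes. Library sizes alone gave 320 calls, of which 21.9% were higher against 39.4% with TMM, DESeq2 422 and limma voom 121. With 1 library left out the count was 8 to 320 (8 without empty vector replicate 1, 320 without Hic1 vector replicate 1), and 0 to 1 members were called, Gpr34 without empty vector replicate 2. The genes called in the related lists, 1 in the first place, numbered 2 with library sizes alone, 13 with no low-count filter, 3 with at least 10 counts in every library, 8 by DESeq2, 11 with the block (among them Faah, Abhd12, Mboat7, Ptges3, Grk2, Grk6 and Rgs3), 0 with GC correction, 11 with both, and 0 to 4 with 1 library left out. The cause of these moves was not tested. Signs turned for Gpr132 with GC correction (-0.016, and -0.011 with the block), and with 1 library left out for Gpr18 (-0.146 to 0.627), P2ry10 (-0.04 to 0.437), Ptger2 (-0.24 to 1.36) and Sult2b1 (-0.48 to 0.432). Gpr34, Gpr55, Gpr183, Gpr174 and Ptger4 kept their sign in every alternative that tested them. Their groups did not overlap, which largely fixes the sign with 1 library left out. The genes were also chosen on these counts, so nothing is read from the kept signs. At 0 and 4 counts with the empty vector, Gpr34 is limited by counting error, and it has no value under the filter of 10 counts in every library.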
